A study of Mus musculus with 6 samples.

Results

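The 10 integrin chain genes described here are Itga4, Itgb1, Itgb7, Itgal, Itgb2, Itga5, Itga6, Itgav, Itgb3 and Itgb5. They were chosen by name, as the chains that T cells can pair into the receptors VLA-4, alpha4beta7, LFA-1, VLA-5, VLA-6 and the alphaV pairs, and they are 10 of 55536 genes in the deposited table. All 10 were among the 15519 genes with enough reads to be tested. Their messenger RNA was measured in CD4+ T cells that carried the transgenic receptor 2D2, which recognises a myelin peptide (MOG35-55). In the HDAC1-cKO group the cells were 2D2-Hdac1fl/fl-Cd4-Cre+, so that both floxed Hdac1 alleles could be recombined in every cell in which the Cd4 promoter had been active. In the WT group they were 2D2-Hdac1fl/fl-Cd4-Cre-, with the same floxed alleles and no Cre. Both groups were on C57BL/6, and no age of the mice is stated in the sources used here. Naive CD45.2+ donor cells went intravenously into CD45.1+ recipients, whose footpads were injected 18 hours later with the peptide in complete Freund's adjuvant. After 4 days, 500 donor 2D2+ CD4+ cells from popliteal lymph nodes made up each library. A library came from 2 pooled mice, and there were 3 libraries per genotype.

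An integrin is a heterodimer of 1 alpha and 1 beta chain, and neither chain reaches the cell surface without a partner. LFA-1 (Itgal with Itgb2) binds ICAM molecules and serves T cells both in lymph node entry and in contact with antigen-presenting cells. VLA-4 (Itga4 with Itgb1) binds VCAM-1 and fibronectin and is the receptor through which encephalitogenic T cells are known to enter the central nervous system, while alpha4beta7 (Itga4 with Itgb7) binds MAdCAM-1 in gut tissue. VLA-5 (Itga5 with Itgb1) binds fibronectin, VLA-6 (Itga6 with Itgb1) binds laminin, and alphaV pairs bind vitronectin and other proteins with an RGD motif.

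The libraries held 19956153 to 36307610 reads in genes in HDAC1-cKO and 39036751 to 55900237 in WT, and each of the chains had at least 19 reads in each library. Hdac1 stood at 7.63 ± 0.652 FPKM in HDAC1-cKO and 115.5 ± 2.90 FPKM in WT (FPKM are counts that the authors scaled to gene length and library size; SD, n = 3 each), with a log2 fold change of -3.91 (SE 0.12) and an edgeR adjusted p of 9.59e-06, the direction the labels give. HDAC1-cKO replicate 2 stood apart: over 8227 well-expressed genes, those with GC-rich transcripts were high in it (Pearson r of 0.594 between GC content and the departure from the average library), whereas r lay between -0.289 and -0.0697 in the other 5. These r describe genes, which are not independent. A list of 10 T cell markers, Cd4 among them, summed to 6821 to 8248 CPM (counts scaled to library size) in HDAC1-cKO and 8093 to 9403 CPM in WT. It had 0 members called higher and 2 lower, Cd3e and Cd2, against 0.979% and 0.992% of all genes. The median log2 fold change was -0.27, with 8 members negative and 2 positive, Cd4 (0.10) and Cd247 (0.06). Fewer cells of a type and less RNA per cell cannot be told apart in these bulk libraries.

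The chains were present at very unequal levels. In each of the 6 libraries Itgb7 had the highest FPKM of the 10, followed by Itgb1 and Itgb2 and then by Itgal. Itgb1 and Itgb2 overlapped in HDAC1-cKO, at 75.2 to 130 and 103 to 111 FPKM, and not in WT, at 111 to 128 and 134 to 156 FPKM. The other 6 chains lay far below. Summed over the 8 beta chain genes of the mouse, beta chain messages came to 411 ± 9.46 FPKM in HDAC1-cKO and 551 ± 59.6 FPKM in WT, while the 18 alpha chain genes together came to 37.7 ± 3.20 FPKM in HDAC1-cKO and 50.2 ± 4.46 FPKM in WT (SD, n = 3 each). Beta chain message thus exceeded alpha chain message 9.93-fold to 12.3-fold in HDAC1-cKO and 10.2-fold to 12.5-fold in WT. Itgal made up 71.0 ± 9.65% of alpha chain FPKM in HDAC1-cKO and 76.1 ± 1.47% in WT, and Itgb7 made up 47.4 ± 5.16% of beta chain FPKM in HDAC1-cKO and 51.2 ± 1.83% in WT (SD, n = 3 each).

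Below these 4 chains the order was close and partly differed between genotypes. In HDAC1-cKO the mean levels ran from Itga4 with 3.01 FPKM through Itgb3 with 1.99, Itgb5 with 1.86, Itga5 with 1.51 and Itga6 with 1.49 to Itgav with 1.41 FPKM, and each neighbouring pair in this order overlapped over its libraries. In WT the order was Itga4 with 3.29 FPKM, Itgb3 with 2.56, Itgav with 2.45, Itga6 with 0.986, Itga5 with 0.288 and Itgb5 with 0.228 FPKM. Here Itga4, Itgb3 and Itgav overlapped, Itgav and Itga6 did not, Itga6 and Itga5 did not, and Itga5 and Itgb5 overlapped. Itgb5 was thus the seventh of the 10 chains in HDAC1-cKO and the tenth in WT by mean FPKM. Places among these low chains depend on the gene length used: with CPM divided by the merged exon length of the annotation, Itgb3 (2.53) stood above Itga4 (2.32) in WT, and Itga6 (0.732) was the lowest in HDAC1-cKO.

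**Figure D1:**
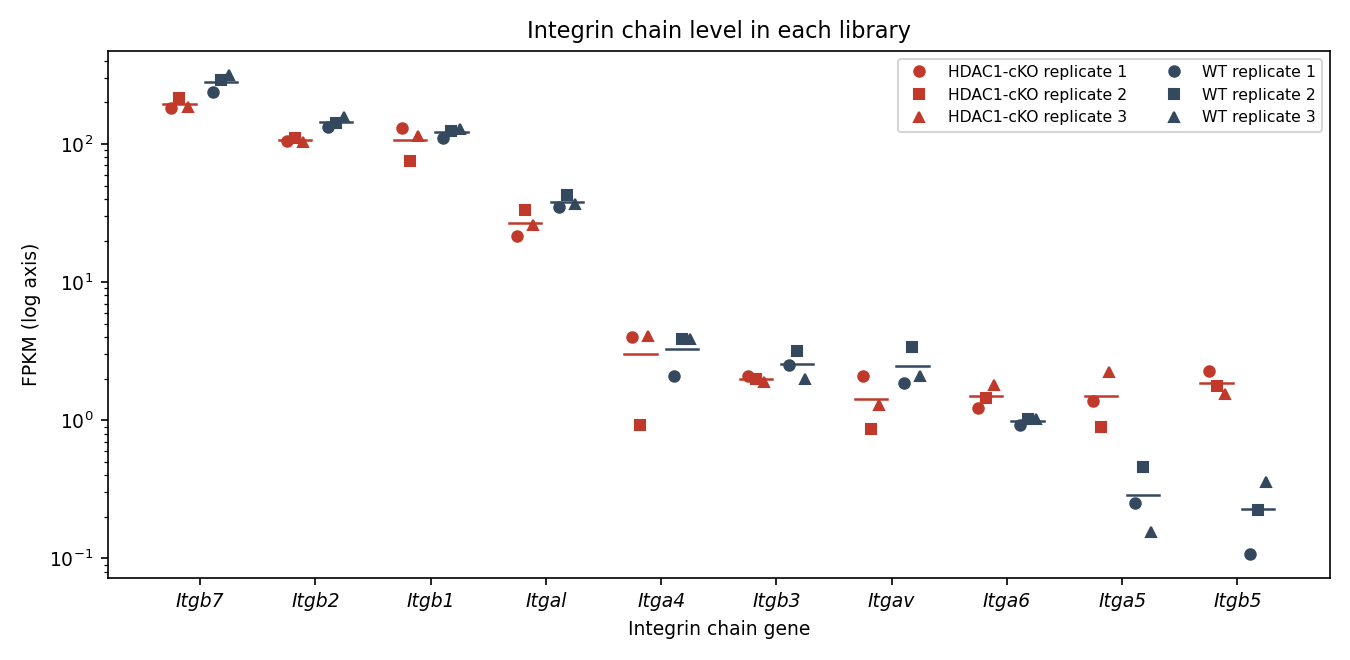
FPKM on a log axis for each of the 10 integrin chain genes, HDAC1-cKO libraries in red on the left and WT libraries in dark blue on the right of each gene; points are libraries, with a marker shape per replicate number, and bars are means of 3 libraries. Itgb5 lies at 1.54 to 2.28 FPKM in HDAC1-cKO and at 0.108 to 0.355 FPKM in WT, while Itgb1 and Itga4 overlap between genotypes.

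Between genotypes, 1 chain passed the test: Itgb5 rose in HDAC1-cKO. Itga5 had the next largest difference and missed the threshold, as did the chains Itgb7, Itgal and Itgb2 in the opposite direction, each of which had all 3 HDAC1-cKO libraries below all 3 WT libraries. The VLA-4 chains Itga4 and Itgb1 overlapped between genotypes. Of the 10 chains 1 was called higher and 0 lower (edgeR quasi-likelihood test, adjusted p under 0.05 over all genes), against 0.979% and 0.992% of all 15519 genes. At an unadjusted p under 0.05, Itga5 and Itga6 were also higher and Itgb7, Itgal and Itgb2 lower, a cut that 8.62% of all genes passed as higher and 8.39% as lower. In 3 chains (Itgb5, Itga5 and Itga6) every HDAC1-cKO library lay above every WT library, which held for 12.7% of all genes, and in 3 (Itgb7, Itgal and Itgb2) every one lay below, which held for 11.8% of all genes. Log2 fold changes were negative in 7 chains and positive in 3, with a median of -0.27, and the median over all genes was -0.002.

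**Figure D2:**
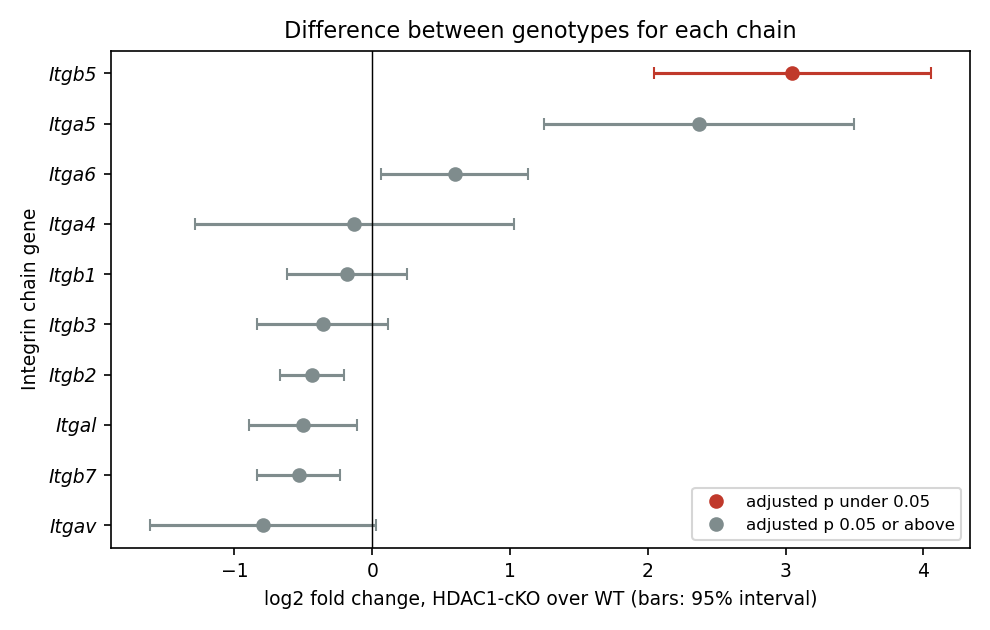
Log2 fold change of HDAC1-cKO over WT (edgeR) for each chain, with 95% confidence intervals as bars, over 3 libraries per genotype; red marks an adjusted p under 0.05 over all genes and grey one at or above it. Itgb5 is the 1 red point, at 3.05, and Itga5 follows at 2.37.

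LFA-1 is the main ICAM receptor of T cells, and both of its chains were lower in each HDAC1-cKO library than in any WT library, without passing the test. Itgal (chromosome 7, 127296260 to 127335138, plus strand, GRCm38), the alpha chain, stood at 21.5, 33.3 and 26.1 FPKM in HDAC1-cKO replicates 1, 2 and 3 and at 35.2, 43.0 and 36.6 FPKM in WT replicates 1, 2 and 3. The gap between the highest HDAC1-cKO library and the lowest WT library was small. Its log2 fold change was -0.50 ± 0.17 (SE; edgeR adjusted p = 0.180). Itgb2 (chromosome 10, 77530252 to 77565708, plus strand), the beta chain that LFA-1 shares with the myeloid integrins, stood at 105, 111 and 103 FPKM in HDAC1-cKO and at 134, 143 and 156 FPKM in WT. Here the HDAC1-cKO libraries lay close together, with a coefficient of variation of 3.69%, and the groups were clearly apart. Itgb2 differed by -0.44 ± 0.10 on the log2 scale, a ratio of 0.739 (95% interval of the log2 value -0.67 to -0.21; edgeR adjusted p = 0.0683). Without HDAC1-cKO replicate 2 both chains fell past the threshold, by 0.691 and 0.478 on the log2 scale (edgeR adjusted p = 0.0363 for Itgal and 0.0353 for Itgb2), and with offsets that remove each library's GC trend Itgb2 passed it too (log2 fold change -0.489, edgeR adjusted p = 0.0257) and Itgal did not (0.0656). Without any 1 of the other 5 libraries neither passed, with adjusted p of 0.216 to 0.456 for Itgal and 0.0910 to 0.252 for Itgb2. Itgb2 shares 1.05% of its 50-base stretches with Gm14699, and Itgal shares none with another gene.

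Itgb7, the beta chain of the gut-homing receptor alpha4beta7, was lower by a similar amount. Itgb7 (chromosome 15, 102215995 to 102231944, minus strand) stood at 183, 216 and 185 FPKM in HDAC1-cKO and at 239, 292 and 318 FPKM in WT. No HDAC1-cKO library reached the lowest WT library. The log2 fold change was -0.53 ± 0.13 (SE; 95% interval -0.83 to -0.23; edgeR adjusted p = 0.0844). The adjusted p was 0.0412 without HDAC1-cKO replicate 2 and 0.0198 with the GC offsets, where Itgb7 thus fell, but 0.0726 to 0.269 without any 1 of the other 5 libraries. Over 21 alternatives it ran from 0.00721 to 0.269 and was under the threshold in 6.

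Itga4, the alpha chain that VLA-4 and alpha4beta7 share, and Itgb1, the beta chain of all VLA receptors, varied more within a genotype than between them. Itga4 (chromosome 2, 79255426 to 79333123, plus strand) stood at 4.00, 0.929 and 4.09 FPKM in HDAC1-cKO and at 2.08, 3.89 and 3.89 FPKM in WT. HDAC1-cKO replicate 2 was by far the lowest library and WT replicate 1 the second lowest, while the other 4 lay together. The 95% interval of the log2 fold change, -1.29 to 1.03, leaves even the direction undetermined (-0.13 ± 0.50, SE; edgeR adjusted p = 0.934), and the value was 0.295 without HDAC1-cKO replicate 2. Itgb1 (chromosome 8, 128685654 to 128733200, plus strand) stood at 130, 75.2 and 115 FPKM in HDAC1-cKO and at 111, 125 and 128 FPKM in WT. Again HDAC1-cKO replicate 2 was the lowest and the other 5 libraries overlapped. Its log2 fold change was -0.19 ± 0.19 (SE; 95% interval -0.62 to 0.25; edgeR adjusted p = 0.699), and it was 0.0036 without that library. Among the 10 chains, Itga4, Itgav and Itgb1 have the lowest GC content in their longest transcripts (41.1, 43.5 and 44.8%). In HDAC1-cKO replicate 2 these 3 stood at 0.230, 0.516 and 0.615 times the mean of the other HDAC1-cKO libraries, and Itga5, with 57.3% GC, at 0.488 times that mean, while the remaining 6 stood at 0.927 to 1.40 times. With the GC offsets Itga4 differed by -0.037 and Itgb1 by -0.117 on the log2 scale. Without strand, reads from Cerkl, whose exons cover 8.04% of the exon bases of Itga4 on the other strand, can enter its count; Cerkl itself had 86 to 199 reads in HDAC1-cKO and 114 to 260 in WT.

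The fibronectin receptor chain Itga5 was low in WT and higher in every HDAC1-cKO library. Itga5 (chromosome 15, 103344286 to 103366763, minus strand) had 201, 148 and 204 reads in HDAC1-cKO and 57, 112 and 26 reads in WT. This gave 1.39, 0.888 and 2.25 FPKM in HDAC1-cKO and 0.250, 0.459 and 0.155 FPKM in WT. The groups did not overlap, although the highest WT library and the lowest HDAC1-cKO library came within 1.93-fold of each other. The log2 fold change was 2.37 ± 0.49, a ratio of 5.17 (SE; 95% interval 1.25 to 3.49; edgeR adjusted p = 0.0546). Over 20 alternatives the adjusted p ran from 8.68e-05 to 0.176 and was under the threshold in 6; leaving out HDAC1-cKO replicate 2 gave 0.0349, and leaving out any 1 of the other 5 gave 0.110 to 0.172. Itga6, the laminin receptor chain (chromosome 2, 71745616 to 71858416, plus strand), showed a smaller difference of the same sign, with 1.22, 1.46 and 1.80 FPKM in HDAC1-cKO and 0.925, 1.02 and 1.01 FPKM in WT. The 3 WT libraries were almost level and all lay below HDAC1-cKO. Its log2 fold change was 0.60 ± 0.23 (SE; edgeR adjusted p = 0.235), with no call in 20 alternatives.

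Among the alphaV pairs, Itgb5, low in WT, rose in HDAC1-cKO, and its partner Itgav was not called. Itgb5 (chromosome 16, 33829665 to 33949338, plus strand), the beta chain of the vitronectin receptor alphaVbeta5, had 255, 228 and 108 reads in HDAC1-cKO and 19, 42 and 46 reads in WT. The corresponding levels were 2.28, 1.77 and 1.54 FPKM in HDAC1-cKO and 0.108, 0.223 and 0.355 FPKM in WT. Every HDAC1-cKO library was at least 4.34-fold above every WT library. Itgb5 rose by 3.05 ± 0.44 on the log2 scale, a ratio of 8.27 (SE; 95% interval 2.04 to 4.05; edgeR adjusted p = 0.0238), and ranked 71st of the 15519 genes by p. The adjusted p was 0.0253 without HDAC1-cKO replicate 2, but 0.0848 and 0.0913 without HDAC1-cKO replicates 1 and 3 and 0.0517, 0.111 and 0.0504 without WT replicates 1, 2 and 3, so the call ended without any of these 5 libraries. Over 20 alternatives it ran from 4.72e-09 to 0.111. The log2 value stayed between 2.69 and 3.48 in the fits without 1 library. Itgb5 shares 7.26% of its 50-base stretches with the processed pseudogene Gm38317, which had 18, 20 and 7 reads in HDAC1-cKO and 2, 6 and 1 in WT, so a few reads may have been split between them.

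Itgav, the alpha chain common to these pairs, and Itgb3, the other vitronectin receptor beta chain, did not pass the test. Itgav (chromosome 2, 83724397 to 83806916, plus strand) stood at 2.09, 0.869 and 1.28 FPKM in HDAC1-cKO and at 1.85, 3.40 and 2.10 FPKM in WT. HDAC1-cKO replicate 1 lay among the WT libraries and the other HDAC1-cKO libraries below them. The log2 fold change was -0.79 ± 0.36 (SE; 95% interval -1.61 to 0.03; edgeR adjusted p = 0.311), and it was -0.492 without WT replicate 2 and -1.19 without HDAC1-cKO replicate 1. The antisense gene Gm13684, with 6 to 23 reads in HDAC1-cKO and 19 to 40 in WT, overlaps 5.90% of its exon bases. Itgb3 (chromosome 11, 104608000 to 104670476, plus strand) stood at 2.09, 1.99 and 1.88 FPKM in HDAC1-cKO and at 2.51, 3.16 and 1.99 FPKM in WT. The lowest WT library fell within the HDAC1-cKO range. Its log2 fold change was -0.36 ± 0.21 (SE; edgeR adjusted p = 0.438), and it was -0.188 without WT replicate 2. Itgb3 is also an abundant platelet integrin, and of 8 platelet and megakaryocyte markers 7 had 0 reads in all 6 libraries, with a summed level of 0 to 0.343 CPM in HDAC1-cKO and 0 to 0.290 CPM in WT.

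**Figure D3:**
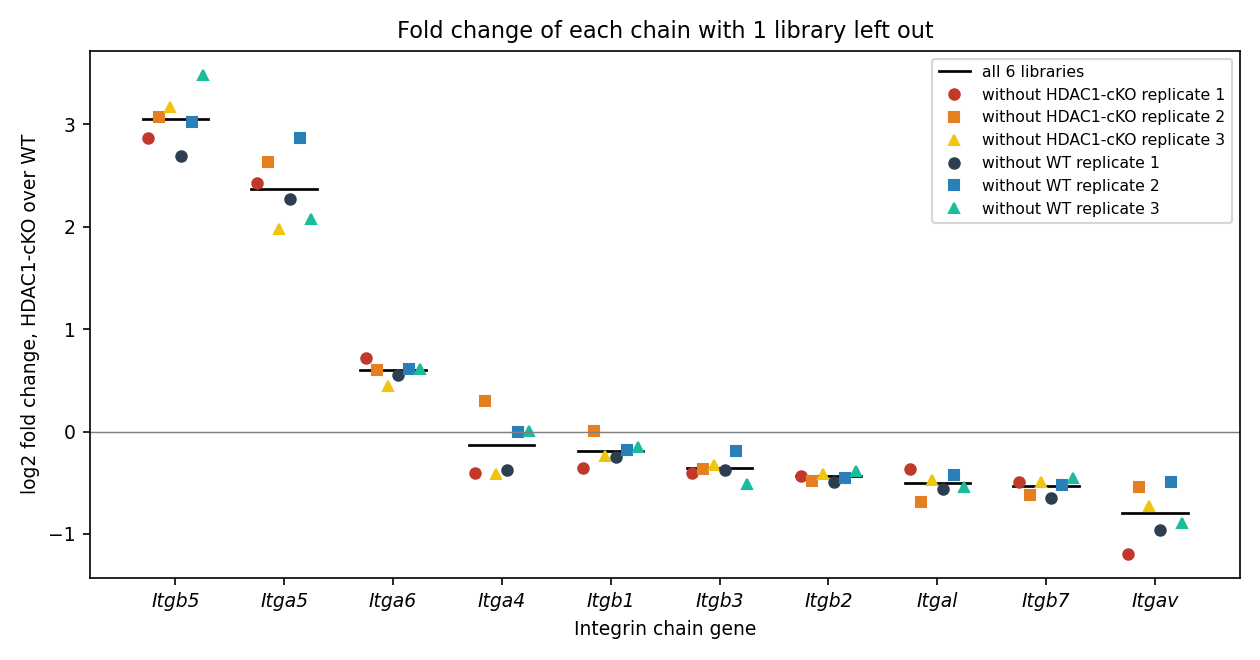
Log2 fold change of HDAC1-cKO over WT for each chain with all 6 libraries (black bar) and with 1 library left out (coloured points, 1 per library). Itgb5 stays between 2.69 and 3.48, whereas Itga4 moves between -0.412 and 0.295.

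The start regions of Itgb5 and Itga5, the chains with the largest differences, are shown with that of Itgb7, the most abundant chain and lower in HDAC1-cKO. RefSeq promoter windows on GRCm38.p6, from 250 bases before to 50 after the start of the gene and read on its own strand, were found for 6 of the 10 chains (Itga4, Itgb1, Itgb7, Itga5, Itgav and Itgb5). Capitals mark matches to the GC box GGGCGG, the core recognised by Sp1 family factors, on either strand (CCGCCC on the other); no matches overlapped in the windows printed. The Itgb5 window (chr16:33829415-33829714, plus strand) held 3, the Itga5 window (chr15:103366742-103367041, minus strand) 2 and the Itgb7 window (chr15:102231886-102232185, minus strand) 0.
Itgb5: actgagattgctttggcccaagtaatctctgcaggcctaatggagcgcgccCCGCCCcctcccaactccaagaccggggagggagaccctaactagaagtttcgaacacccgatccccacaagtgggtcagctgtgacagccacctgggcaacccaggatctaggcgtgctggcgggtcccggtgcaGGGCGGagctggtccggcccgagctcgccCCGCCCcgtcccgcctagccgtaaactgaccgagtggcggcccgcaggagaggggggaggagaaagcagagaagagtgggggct
Itga5: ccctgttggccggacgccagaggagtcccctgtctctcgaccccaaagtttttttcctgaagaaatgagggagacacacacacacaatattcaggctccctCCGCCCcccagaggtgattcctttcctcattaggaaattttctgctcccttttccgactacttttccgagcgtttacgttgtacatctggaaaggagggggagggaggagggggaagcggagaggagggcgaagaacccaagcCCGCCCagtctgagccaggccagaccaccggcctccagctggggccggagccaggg
Itgb7: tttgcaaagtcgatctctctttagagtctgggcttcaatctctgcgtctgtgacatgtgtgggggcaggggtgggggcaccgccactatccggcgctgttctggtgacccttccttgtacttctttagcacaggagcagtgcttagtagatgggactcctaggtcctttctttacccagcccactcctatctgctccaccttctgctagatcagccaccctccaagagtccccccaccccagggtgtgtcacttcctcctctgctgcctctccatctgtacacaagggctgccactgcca
Of the 6 windows 5 held at least 1 GC box, against 35.7% of 32851 RefSeq windows of the same length, and the windows of Itga4, Itgb1 and Itgav, which were not called, held 1 each. None of the 6 held the TATA box TATAAA on either strand, which 13.6% of all windows held. These are matches of letters only, and no binding was measured.
Neighbouring CG pairs numbered 20 in Itgb5, 13 in Itga5 and 5 in Itgb7, and the median over all windows was 7. The windows of Itgb1, Itgav and Itga4, which were not called and had negative log2 fold changes, held 27, 24 and 10.

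Since a chain needs a partner, the ratio of partner chains was computed within each library, where scaling between libraries drops out. A GC trend, as in HDAC1-cKO replicate 2, does not drop out where the chains differ in GC content. For alphaVbeta5, Itgav over Itgb5 came to 0.916, 0.491 and 0.832 in the HDAC1-cKO libraries and to 17.2, 15.3 and 5.93 in the WT libraries, in replicate order. Itgav message thus exceeded that of Itgb5 in WT and was below it in each HDAC1-cKO library. The log2 ratio differed by -4.01 between genotypes (means of -0.47 ± 0.48 in HDAC1-cKO and 3.53 ± 0.84 in WT, SD, n = 3 each; exact permutation p = 0.1, the smallest that 3 against 3 libraries allow, and 0.225 adjusted over 9 ratios).

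For 3 alpha chains the ratio to Itgb1 also separated the genotypes. The ratio of Itga5 to Itgb1 was 0.0107, 0.0118 and 0.0197 in HDAC1-cKO and 0.00225, 0.00367 and 0.00121 in WT, which is a log2 difference of 2.65. That of Itga6 to Itgb1 was 0.00941, 0.0194 and 0.0157 in HDAC1-cKO and 0.00833, 0.00814 and 0.00790 in WT, a log2 difference of 0.81. That of Itgav to Itgb1 was 0.0161, 0.0116 and 0.0112 in HDAC1-cKO and 0.0167, 0.0272 and 0.0164 in WT, a log2 difference of -0.61, with the nearest libraries almost level; it was -0.373 without WT replicate 2. In these 3 pairs the libraries of the genotypes did not overlap. Each had an exact permutation p of 0.1, the design's minimum, and 0.225 adjusted over 9 ratios, with n = 3 per group. All 3 ratios share the values of Itgb1, so they are not independent of each other. The ratio of the LFA-1 chains overlapped between genotypes. Itgal over Itgb2 came to 0.206, 0.301 and 0.253 in HDAC1-cKO and 0.263, 0.301 and 0.235 in WT, with a log2 difference of -0.083 (exact permutation p = 0.7, n = 3 per group). The highest ratios of the genotypes were equal to 3 digits, and the lowest was in HDAC1-cKO.

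For the receptors that share Itga4, the values depended on single libraries, most of all on HDAC1-cKO replicate 2. The ratio of Itga4 to Itgb1 was 0.0308, 0.0124 and 0.0357 in HDAC1-cKO and 0.0188, 0.0311 and 0.0303 in WT. The ratio of Itga4 to Itgb7 was 0.0218, 0.00431 and 0.0221 in HDAC1-cKO and 0.00872, 0.0134 and 0.0123 in WT. In both pairs replicate 2 was the lowest of the 6 libraries and the other HDAC1-cKO libraries were at or near the top. The log2 differences were -0.13 and 0.18 with all libraries, and 0.348 and 0.965 without HDAC1-cKO replicate 2. That of Itga4 to Itgb7 was -0.206 and -0.215 without HDAC1-cKO replicates 1 and 3, and -0.0032 without WT replicate 1. That of Itga4 to Itgb1 was 0.0011 without WT replicate 2. The ratio of Itgb7 to Itgb1, the chains that compete for Itga4, was 1.41, 2.87 and 1.61 in HDAC1-cKO and 2.15, 2.33 and 2.48 in WT. Its log2 difference was -0.31 with all libraries and -0.617 without replicate 2, where both remaining HDAC1-cKO libraries lay below WT; it was -0.105 and -0.202 without HDAC1-cKO replicates 1 and 3.

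**Figure D4:**
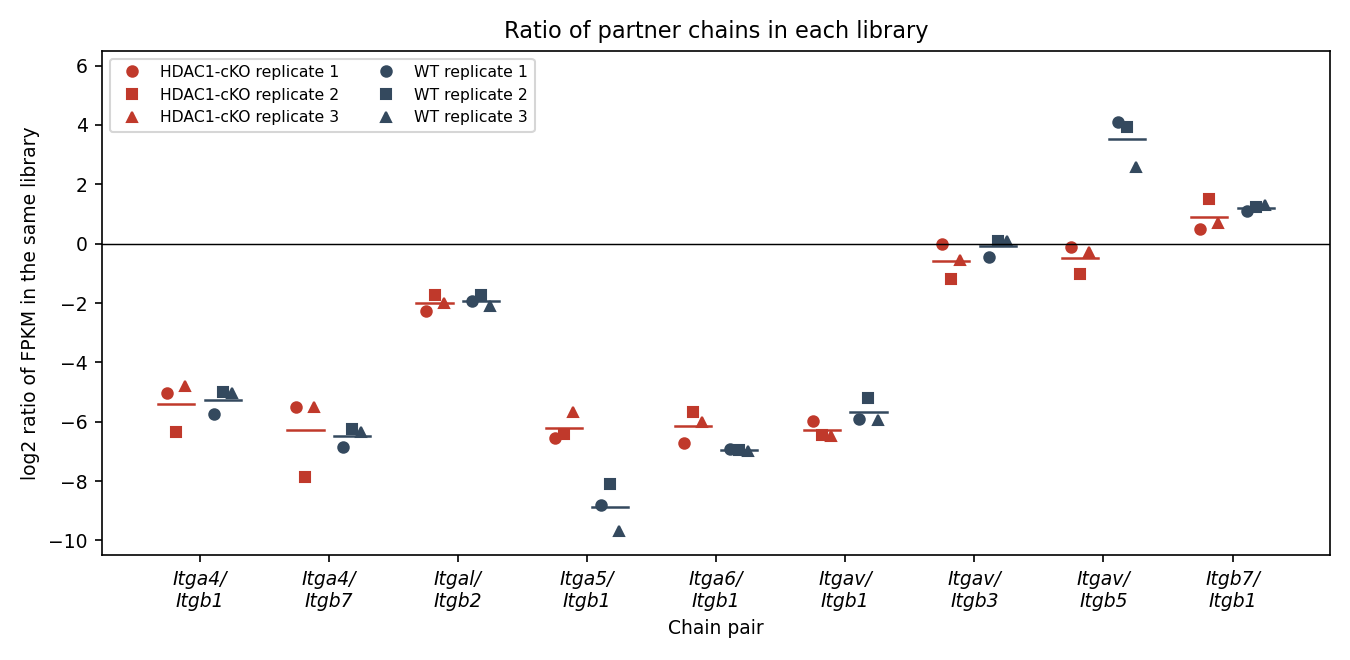
Log2 ratio of the FPKM of chains in the same library for 8 heterodimers and for Itgb7 against Itgb1, HDAC1-cKO in red on the left and WT in dark blue on the right; points are libraries, bars are means of 3, and the line at 0 marks equal FPKM. The Itgav to Itgb5 ratio is below 0 in each HDAC1-cKO library and between 2.57 and 4.10 in WT.

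The other 16 integrin chains of the mouse added little message. Of them 7 were tested, all with negative log2 fold changes (median -0.74). EdgeR called 0 of them, against 0.979% of all genes called higher and 0.992% lower. At an unadjusted p under 0.05, 1 was lower (8.39% of all genes). That was Itga2, a collagen receptor chain, with 3.40, 0.321 and 1.47 CPM in HDAC1-cKO and 4.33, 5.38 and 6.22 CPM in WT (log2 fold change -1.62 ± 0.67, SE; edgeR adjusted p = 0.268). Itgam, the alpha chain of the myeloid integrin Mac-1, ranged over 0.294 to 1.10 CPM in HDAC1-cKO, against 0.817 to 2.29 CPM in WT (edgeR adjusted p = 0.394). Reads of Itga8, Itgb6 and Itgb8 were 0 in all libraries.

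Some proteins inside the cell act on the tails of these chains and can switch integrins to their binding state. A list of 32 adaptor and signalling genes of integrins, not sorted by their effect on binding, was read beside the chains. Of these 28 were tested, with 0 called higher and 1 lower, against 0.979% and 0.992% of all genes. Log2 fold changes were negative in 21, with a median of -0.24, while 49.7% of all genes had positive ones. In 9 of the 28 every HDAC1-cKO library lay below every WT library, and in 0 above, against 11.8% below and 12.7% above over all genes. Lims1, which encodes the PINCH-1 adaptor of the integrin-linked kinase complex, fell to 55.1, 50.6 and 52.8 CPM in HDAC1-cKO, against 79.1, 93.4 and 80.2 CPM in WT (log2 fold change -0.67 ± 0.12, SE; edgeR adjusted p = 0.0347). With the GC offsets its log2 fold change was -0.462 (edgeR adjusted p = 0.1002). Leaving out HDAC1-cKO replicate 1 or 3, or WT replicate 1, 2 or 3, ended the call, with adjusted p between 0.0695 and 0.148. Stk4, the kinase MST1 that acts downstream of Rap1 in lymphocyte adhesion, had 89.6, 88.7 and 74.9 CPM in the HDAC1-cKO libraries, against 115, 124 and 118 CPM in the WT libraries (edgeR adjusted p = 0.0721). The groups did not overlap in Lims1 or in Stk4. Ilk, the gene of the integrin-linked kinase itself, had too few reads to be tested. It had 2, 3 and 0 reads in HDAC1-cKO and 3, 1 and 3 in WT.

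Among genes of integrin ligands and associated proteins, few had many reads. Of 14, 5 had 0 reads in all libraries and 6 were tested. EdgeR called 0 in either direction, against 0.979% of all genes higher and 0.992% lower. At an unadjusted p under 0.05, 2 passed, both lower (8.39% of all genes). Cd47, a surface protein that associates with alphaVbeta3, reached 1072, 632 and 1042 CPM in the HDAC1-cKO libraries, against 1287, 1382 and 1383 CPM in the WT libraries (edgeR adjusted p = 0.180). Vcam1, the VLA-4 ligand of endothelium and stroma, had 0.797, 0 and 0.049 CPM in the HDAC1-cKO libraries, against 3.08, 2.60 and 1.71 CPM in the WT libraries (edgeR adjusted p = 0.198).

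Cells other than T cells can carry Itgb5, Itgav and Itga5, so their markers are given beside these chains. Over all genes edgeR called 0.979% higher and 0.992% lower. The myeloid and dendritic markers Csf1r, Cd14, Clec9a and Flt3 had 0 reads in all libraries. The summed level of that list of 11 was 195 to 229 CPM in HDAC1-cKO and 164 to 220 CPM in WT, most of it Cst3, a gene of broad use, with 0 of the 4 tested members called by edgeR and 2 lower at an unadjusted p under 0.05 (8.39% of all genes). These were Lyz2, with 32, 140 and 55 reads in HDAC1-cKO and 104, 1245 and 394 in WT, and Xcr1. Xcr1 had 156, 58 and 91 reads in HDAC1-cKO and 578, 597 and 366 in WT. Of the 4 tested, 3 had negative log2 fold changes (Lyz2, Xcr1 and Tyrobp) and 1, Cst3, a positive one. Of 9 stromal and endothelial markers, Col1a2, Pdpn and Lyve1 had 0 reads in all libraries and 3 were tested; the list summed to 60.1 to 81.5 CPM in HDAC1-cKO and 64.2 to 99.4 CPM in WT, most of it Pecam1, which T cells also express. Pdgfrb, a receptor of pericytes and fibroblasts, had 39, 15 and 43 reads in the HDAC1-cKO libraries, against 6, 0 and 0 reads in the WT libraries (edgeR adjusted p = 0.0948). The other 2 tested markers had negative log2 fold changes, -0.33 for Pecam1 and -0.25 for Col1a1. Itgb5 averaged 6.40 ± 1.29 CPM in the HDAC1-cKO libraries and 0.782 ± 0.421 CPM in the WT libraries (SD, n = 3 each). Within HDAC1-cKO, Pdgfrb was highest in replicate 3 (2.11 CPM), where Itgb5 was lowest (5.29 CPM) and Itga5 highest (9.996 CPM). Pdgfrb was lowest in replicate 2 (0.401 CPM), where Itga5 was also lowest (3.96 CPM). These orders rest on 3 libraries and were not tested. B cell markers, 7 in all, summed to 34.9 to 67.2 CPM in HDAC1-cKO and 16.8 to 44.2 CPM in WT, with 0 of 7 called by edgeR and 1 higher at an unadjusted p under 0.05 (8.62% of all genes). This was Cd79b, a chain of the B cell receptor complex, with 18.8, 25.9 and 18.6 CPM in the HDAC1-cKO libraries, against 10.5, 12.4 and 8.69 CPM in the WT libraries (log2 fold change 1.00, edgeR adjusted p = 0.0592), so that it was above WT in every HDAC1-cKO library, as Itgb5 was. With DESeq2 its adjusted p was 0.00055 and with limma-voom 0.0197. CD8 and NK markers, 6 in all, summed to 82.1 to 117 CPM in HDAC1-cKO and 56.2 to 126 CPM in WT, with 0 called by edgeR and 1 higher at an unadjusted p under 0.05 (8.62% of all genes). That was Cd8b1, a CD8 chain, with 66.9, 71.4 and 64.6 CPM in the HDAC1-cKO libraries, against 45.0, 45.4 and 57.0 CPM in the WT libraries. Its log2 fold change was 0.46 (edgeR adjusted p = 0.127, and 0.035 with DESeq2). Cd8a, at 0.42, overlapped between genotypes. The other 3 tested markers had negative log2 fold changes, -1.16 for Klrb1c, -0.61 for Klrk1 and -0.20 for Klrd1. Neutrophil markers, 7 in all, summed to 0 to 0.187 CPM in HDAC1-cKO and 0.234 to 0.418 CPM in WT. The part of such cells in the Itgb5 and Itga5 values was not tested. The marker genes named here were picked after their values were seen.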

How the data were processed

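Per the labels' protocols, full-length cDNA of 500 cells per library was made by Smart-seq2, tagged by transposase (Nextera XT, which keeps no strand), and sequenced as 50-base single reads. The authors deposited raw read counts per gene and FPKM for 6 libraries; 0 columns had no sample. The submitters' processing notes name STAR 2.5.2b, Picard 2.19.2, DESeq2 1.24.0 and R 3.6.1; the counter and the treatment of reads with several matches have no entry in the labels or notes. The deposited gene coordinates of the 10 chains are those of GENCODE M21 on GRCm38. Over 10896 genes with at least 50 reads in each library, deposited FPKM divided by count was a constant per gene times the inverse of the DESeq2 size factor.

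Members and gene lists were chosen with earlier results of these data known. Genes kept by filterByExpr (99.92% or more of each library's counts) were tested after TMM scaling with edgeR 4.0.16 in R 4.3.3 (quasi-likelihood F test, robust, two-sided, genotype as term), with Benjamini-Hochberg adjustment over all genes and a threshold of 0.05. The SE is the log2 fold change divided by the root of F. Chain ratios used exact two-sided permutation tests (scipy 1.17.1). Reads carry no molecular identifiers, so counts are not independent molecules. Libraries are called biological replicates in the series text. Named were all 10 chains, Hdac1 and, in each list of other chains, adaptors and ligands, the called members up to 4, or the 2 with the lowest p where fewer than 2 were called. Alternatives used DESeq2 1.42.0, limma 3.58.1 on FPKM and with voom, other filters and scalings, thinned counts, GC and length offsets (loess on log2 CPM with a prior count of 2), a replicate block and leaving out each library.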

Additional observations from a re-analysis of the deposited data

How the results depend on the processing

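The number of chains called depended on the setting, as did the number of all genes called, which is given below. In the fit reported above, 1 chain was called higher and 0 lower. The higher count was 2 with no low-count filter, DESeq2, limma-voom with sample weights, limma on log2(FPKM + 0.1), thinned counts or a threshold of 0.1, and 0 with limma on log2(FPKM + 1) without a low-value filter, with the replicate block and with a filter of at least 10 CPM in 3 libraries, which removes Itgb5, Itga5 and Itga6. The lower count was 2 with DESeq2, GC offsets, GC and length offsets, replicate block with GC offsets or a threshold of 0.1, and 3 with limma-voom. Without 1 library the higher count ran from 0 to 2 and the lower count from 0 to 3, both highest without HDAC1-cKO replicate 2. The Itga4 log2 fold change turned to 0.094 with limma-voom and 0.087 with GC and length offsets. Without 1 library it ran from -0.412 to 0.295, that of Itgb1 from -0.357 to 0.0036, and the log2 differences of the Itga4/Itgb1, Itga4/Itgb7 and Itgal/Itgb2 ratios from -0.417 to 0.348, -0.215 to 0.965 and -0.216 to 0.058. The cause was not tested. The other 8 chains and 6 ratios kept their direction in all settings that could be fitted.

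Departures from group means correlated at 0.208, 0.0065 and -0.14 between same-numbered libraries of the genotypes, over 8230 genes. The highest correlation was 0.209, between HDAC1-cKO replicate 2 and WT replicate 3. With 3 libraries per genotype these values cannot settle whether the numbers mark pairs. Same-numbered libraries carry adjoining identifiers in the labels, but no pairing is stated there, so the main fit was unpaired. With the replicate block Itgb5 differed by 3.13 on the log2 scale and was not called (edgeR adjusted p = 0.0618). Over all genes, 152 were higher and 154 lower. These numbers were 203 and 243 with no low-count filter, 698 and 665 with DESeq2, 747 and 802 with limma-voom, 20 and 16 with limma on log2(FPKM + 1) without a filter, 34 and 31 with the replicate block, 259 and 235 with GC offsets, 242 and 230 with GC and length offsets, 258 and 368 without HDAC1-cKO replicate 2, and 15 to 26 and 10 to 23 without any other 1 library. With limma on log2(FPKM + 0.1), 211 genes were higher and 195 lower, and with thinned counts 193 and 209. The filter of at least 10 CPM in 3 libraries gave 207 and 226 of 8413 genes tested. The replicate block with GC offsets gave 107 and 105. No number over all genes was computed for the threshold of 0.1. Itgb5 and Itga5 had as few as 19 and 26 reads in a WT library, which limits the precision of their levels.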
